A study of Mus musculus with 2 samples.

Results

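The enzymes that make NAD were followed through the cell classes of post-ischemic mouse kidney. The 10 genes were Kmo, Haao, Qprt, Acmsd, Naprt, Nadsyn1, Nampt, Nmrk1, Nmnat1 and Nmnat3. They were chosen by symbol from the 32285 genes of the reference as enzymes of the de novo, Preiss-Handler and salvage routes. Both libraries were made from kidneys of male C57BL/6 mice aged 9 weeks that underwent bilateral ischemia-reperfusion injury (IRI), with tissue taken at 24 h. The control mouse (n = 1) received saline and the JPI-289 mouse (n = 1) received 100 mg/kg of JPI-289, an inhibitor of poly (ADP-ribose) polymerase (PARP), both into the peritoneal cavity just before blood flow was restored. Neither library came from an uninjured kidney, so both groups share the surgery and the time, and the effect of the surgery itself cannot be read from them.

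NAD is made along several routes that meet. In the de novo route, tryptophan is opened to kynurenine and turned by Kmo, Kynu and Haao into an unstable intermediate that becomes quinolinate, which Qprt joins to phosphoribosyl pyrophosphate, while Acmsd removes the same intermediate before it can become quinolinate. The Preiss-Handler route starts from nicotinic acid (Naprt), the salvage routes start from nicotinamide (Nampt) or nicotinamide riboside (Nmrk1), the Nmnat enzymes attach the adenylyl group in every route, and Nadsyn1 amidates the product of the acid routes. The proximal tubule (PT) is one of the places in the body known for enzymes of the de novo route. PARP enzymes use NAD as their substrate.

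Single-cell libraries of the 5′ end of transcripts held 38328760 UMIs (unique molecular identifiers, counted molecules) from the control kidney and 35548396 from the JPI-289 kidney. After cell calling and removal of cells with over 50% mitochondrial UMIs, 3734 control and 5025 JPI-289 cells remained, with medians of 2069 and 1872 UMIs, and 23 cell barcodes occurred in both libraries. Classes were rebuilt from marker genes and are named "-like". PT-like cells numbered 1776 (control) and 1634 (JPI-289), with 8107828 and 7327546 UMIs. Levels are CPM, the UMIs of a gene scaled to a class total of 1000000 UMIs, with exact Poisson 95% intervals. Ratios are log2 of JPI-289 over control with exact binomial 95% intervals. These intervals cover counting error only. With 1 mouse per group no test between the conditions was possible and no p-value was computed, so treatment, animal and library cannot be told apart. A gene was called lower or higher where it had at least 20 UMIs over both libraries and differed by at least 2-fold.

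The PT label was given from its marker genes, so the levels of these markers describe the class and do not test the label. All 10 PT markers were detected in PT-like cells of both libraries. Their summed level was 21769 CPM in the control against 12774 with JPI-289, of which Kap alone made up 4952 and 7959 CPM. All 10 were also detected in EC-like (endothelial) cells of both libraries, at summed levels of 2221 and 1048 CPM. In PT-like cells, 7 of the 10 PT markers were called lower with JPI-289, with a median log2 ratio of -1.98. Of the 5 injured PT markers, 4 had enough UMIs, and 3 of these were called higher, with a median of 2.38, and the 5 summed to 167 CPM in the control and 1222 with JPI-289. Most PT-like cells of the control, 1750, lay in clusters led by markers of early PT, against 375 of the JPI-289 library, while clusters led by markers of injured PT held 26 and 1259 cells. No PT-like cluster held 50 cells of both libraries, so these clusters may be the libraries rather than kinds of cells. These marker levels move with every PT-like result below, and their part in the results was not tested.

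In PT-like cells all 10 enzymes had a lower level in the JPI-289 library than in the control. The largest differences were those of Acmsd, Nmrk1 and Kmo, and the smallest those of Naprt and Nmnat3. Of the 10, 7 were called lower and 0 higher, where 23.7% of all 11303 genes tested in PT-like cells were called lower and 9.05% higher. The median log2 ratio of the 10 enzymes was -1.48, against -0.19 for all genes, a gap of -1.29, and 58.2% of all genes had a ratio below 0. With every ratio centred on the median of all genes, 2198 genes were called lower and 1512 higher in place of 2678 and 1023, and 6 of the 10 enzymes were called lower, Nampt then staying within 2-fold. Their summed level was 468 CPM (3795 UMIs) in the control and 157 (1150 UMIs) with JPI-289, a log2 ratio of -1.58 (95% interval -1.67 to -1.48).

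**Figure D1:**
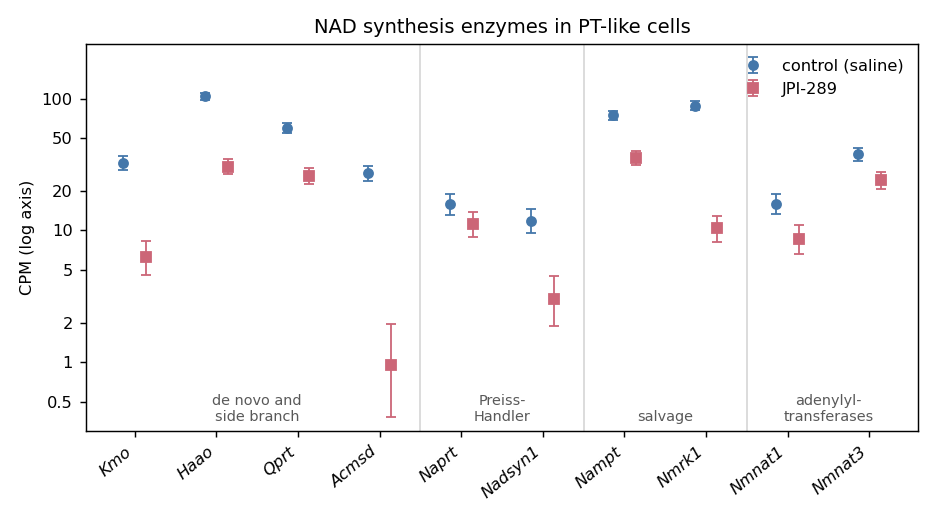
Level of each NAD synthesis enzyme in PT-like cells, in CPM on a log axis, with circles for the control and squares for the JPI-289 library (1 mouse each) and bars for exact Poisson 95% intervals. The JPI-289 value lies under the control value for all 10 genes, and the intervals overlap for Naprt alone.

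Of the de novo enzymes, Kmo, which hydroxylates kynurenine at the outer mitochondrial membrane, had 263 UMIs in PT-like cells of the control and 46 with JPI-289, or 32.4 and 6.28 CPM. Its log2 ratio was -2.36 (95% interval -2.85 to -1.91). Haao, the dioxygenase that opens the ring of 3-hydroxyanthranilate, had 843 and 224 UMIs, or 104 and 30.6 CPM, with a log2 ratio of -1.76 (-1.99 to -1.55). The control level was higher for both genes and the intervals of the levels were apart. Qprt, which commits quinolinate to NAD, had 485 UMIs in the control and 191 with JPI-289, or 59.8 and 26.1 CPM, with a log2 ratio of -1.20 (-1.45 to -0.95). Acmsd, the decarboxylase that diverts the intermediate away from NAD, had 221 UMIs in the control and 7 with JPI-289, or 27.3 (95% interval 23.8 to 31.1) and 0.955 (0.384 to 1.97) CPM. The log2 ratio of Acmsd, -4.74 (-6.17 to -3.77), was the lowest of the 10 enzymes. Both the enzymes that lead to quinolinate and the one that competes with them were thus lower in the JPI-289 library.

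In the Preiss-Handler route, the libraries stood closer for one enzyme than for the other. Naprt, which makes the nicotinic acid mononucleotide, had 128 UMIs in the control and 82 with JPI-289, or 15.8 (13.2 to 18.8) and 11.2 (8.90 to 13.9) CPM. The log2 ratio of -0.49 (-0.91 to -0.085) did not reach 2-fold, and the intervals of the levels overlapped. Nadsyn1, the glutamine-dependent NAD synthetase, had 96 and 22 UMIs, or 11.8 and 3.0 CPM, with a log2 ratio of -1.95 (-2.72 to -1.30) and intervals apart.

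The salvage enzymes differed from each other in the size of the gap. Nampt, usually taken as the rate-limiting enzyme of nicotinamide salvage, had 605 UMIs in PT-like cells of the control and 262 with JPI-289, or 74.6 (68.8 to 80.8) and 35.8 (31.6 to 40.4) CPM. Its log2 ratio was -1.06 (-1.28 to -0.85), just past the 2-fold limit. Nmrk1, the nicotinamide riboside kinase, had 718 and 76 UMIs, or 88.6 (82.2 to 95.3) and 10.4 (8.17 to 13.0) CPM, with a log2 ratio of -3.09 (-3.45 to -2.75). The ratio intervals of the 2 salvage enzymes did not overlap.

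The Nmnat genes, like Naprt, had the smaller differences. Nmnat1, the nuclear form, had 129 UMIs in the control and 63 with JPI-289, or 15.9 and 8.60 CPM, and its log2 ratio was -0.88 (-1.35 to -0.44). Nmnat3, described as the mitochondrial form, had 307 and 177 UMIs, or 37.9 and 24.2 CPM, with a log2 ratio of -0.65 (-0.92 to -0.38). Both were lower with JPI-289 with intervals apart, and neither was called.

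The share of cells with a UMI showed the same direction. With every cell thinned to 1000 UMIs, which kept 1338 control and 1139 JPI-289 PT-like cells and left out 438 and 495 shallower ones, Haao was seen in 10.8% (95% exact Clopper-Pearson interval 9.15 to 12.5) of these control cells and, with JPI-289, in 2.46% (1.64 to 3.53). Nmrk1 was seen in 9.12% (7.63 to 10.8) and 0.966% (0.483 to 1.72), and Acmsd in 3.29% (2.40 to 4.39) and 0.0878% (0.00222 to 0.488). The intervals of the libraries were apart for these 3 genes, and the share was lower with JPI-289 for all 10 enzymes. For Naprt the shares were nearly equal, at 1.72% (1.09 to 2.57) and 1.67% (1.01 to 2.59). The intervals of Nmnat1, Nmnat3 and Nadsyn1 overlapped too, which does not show that these shares are equal. Those of Nmnat1 were 1.87% (1.21 to 2.75) and 0.615% (0.247 to 1.26). Without thinning, Haao was seen in 28.9% and 8.38% of PT-like cells, at medians of 2301 and 1886.5 UMIs per cell. Free RNA can give such UMIs in cells that do not express a gene. In neutrophil-like cells, which are not known for the de novo route, the thinned share of Haao was 1.69% (0.351 to 4.87) in the control and 0.859% (0.280 to 1.99) with JPI-289, at medians of 1973 and 2035.5 UMIs. The part of free RNA in these shares was not tested. In the JPI-289 library the PT-like share of Acmsd, 1 cell, was not apart from that of neutrophil-like cells. There 0 of 582 cells had a UMI of Acmsd, which allows a share of up to 0.515%.

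Promoter windows are printed for the enzymes with a match to a motif searched. These were Haao and Qprt, from the de novo route, and Nampt, from salvage, all called lower in PT-like cells. The windows of Kmo, Nmrk1 and Nadsyn1, also called lower there, held no match and are not printed. The windows are from RefSeq on build GRCm38.p6, each from 250 bases before to 50 bases after the start site, 5′ to 3′ on the strand of the gene. Capitals mark exact matches to the motifs searched, on either strand, in the window.
Haao, chr17:83846741-83847040, minus strand: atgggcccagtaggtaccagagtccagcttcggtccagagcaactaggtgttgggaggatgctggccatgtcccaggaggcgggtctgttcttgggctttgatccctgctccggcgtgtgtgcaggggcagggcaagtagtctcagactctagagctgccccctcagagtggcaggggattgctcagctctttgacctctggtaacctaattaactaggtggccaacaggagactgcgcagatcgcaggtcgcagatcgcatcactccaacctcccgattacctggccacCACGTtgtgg
Qprt, chr7:127121980-127122279, minus strand: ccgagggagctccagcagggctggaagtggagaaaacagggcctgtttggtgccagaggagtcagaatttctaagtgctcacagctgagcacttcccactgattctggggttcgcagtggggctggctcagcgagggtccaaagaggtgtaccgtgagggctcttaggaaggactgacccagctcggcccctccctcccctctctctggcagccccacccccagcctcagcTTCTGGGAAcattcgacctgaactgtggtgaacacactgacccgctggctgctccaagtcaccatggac
Nampt, chr12:32820085-32820384, plus strand: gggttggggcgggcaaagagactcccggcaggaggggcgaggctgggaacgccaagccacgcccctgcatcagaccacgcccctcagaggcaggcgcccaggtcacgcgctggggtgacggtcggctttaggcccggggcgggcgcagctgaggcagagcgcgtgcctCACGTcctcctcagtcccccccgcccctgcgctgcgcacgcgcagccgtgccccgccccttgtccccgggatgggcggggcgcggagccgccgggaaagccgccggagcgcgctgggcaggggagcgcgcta

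RefSeq windows were matched for 9 of the 10 enzymes, Naprt being the one without, and Nmnat1 had 2 windows. The motifs were an HNF4 site (CAAAGTCCA), the DR1 direct repeat bound by nuclear receptors, an NF-kB site, a STAT site (TTCNNNGAA), the HIF core (ACGTG) and the E-box CACGTG, which contains the HIF core. The STAT letters occurred in Qprt alone, as TTCTGGGAA beginning 19 bases before the start site, where 8.30% of all 32851 windows held a match. The HIF core occurred in Nampt and Haao, on the opposite strand, where 19.6% of all windows held it. None of the 9 genes had a match to the HNF4, DR1, NF-kB or E-box letters, which 0.475%, 0.0396%, 0.411% and 7.15% of all windows held. The de novo genes therefore share no match to these letters in these windows. The window of Kmo had a GC content of 44.3%, and that of Nampt 76.3%.

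In the annotation used, Kmo lies at chr1:175620381-175662116, Haao at chr17:83831156-83847963, Qprt at chr7:127107114-127122226 and Nmrk1 at chr19:18631950-18652428 (build GRCm38). Nampt lies at chr12:32819545-32853349, Nadsyn1 at chr7:143795584-143822849, Nmnat1 at chr4:149467572-149485202 and Nmnat3 at chr9:98287435-98420438. Naprt, at chr15:75890956-75894481 on the minus strand, overlaps Eef1d on the same strand over chr15:75894205-75894481, which is its 5′ end and the end that this kit reads. Reads from that stretch cannot be assigned to one of the genes, so the counts of Naprt are uncertain. Kmo and Nmnat1 overlap other genes on the opposite strand only.

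Within PT-like cells the clusters showed how even these levels were. Clusters are numbered by size and are given side by side, since each is nearly all of 1 library. Across the 4 control clusters, Haao ranged from 93.0 to 130 CPM, Kmo from 26.3 to 39.9 and Nampt from 59.6 to 80.7. All 4 control clusters thus held these 3 genes at levels within 2-fold of one another. Nmrk1 was less even, at 203 (172 to 237) CPM in cluster 14 and 63.6 to 106 in the other 3. Qprt was lowest in the same cluster, at 13.2 (6.35 to 24.4) against 54.9 to 93.1 CPM in the other 3. Acmsd (11.6 to 37.0 CPM), Nmnat3 (23.5 to 91.4), Nadsyn1 (7.16 to 25.2) and Naprt (10.6 to 22.1) also spanned more than 2-fold. Cluster 14 (216 control cells) had Kcnq1ot1, an RNA retained in the nucleus, among its 10 leading genes, and without it 7 of 10 enzymes were still called lower in PT-like cells, with Nmrk1 at a log2 ratio of -2.88.

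The 3 JPI-289 clusters differed most for Haao. Cluster 8 (369 cells), led by the fibrinogen genes and early PT markers such as Slc5a2, held Haao at 5.61 (3.07 to 9.42) CPM, cluster 0 (937 cells), led by Srxn1, Plin2 and Krt20, at 13.3 (8.95 to 18.9), and cluster 10 (322 cells), led by Inmt, Kap and Cyp2e1, at 69.8 (59.9 to 80.8). The Haao intervals of cluster 10 and of the other 2 clusters were apart, with cluster 10 higher. Qprt followed the same order, at 16.0, 23.4 and 38.2 CPM. Kmo was low in all 3, at 5.21, 7.96 and 5.85 CPM, and so was Acmsd, at 0.802, 0.442 and 1.56. The JPI-289 clusters were thus uneven in Haao and Qprt and alike in their low counts of Kmo and Acmsd.

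**Figure D2:**
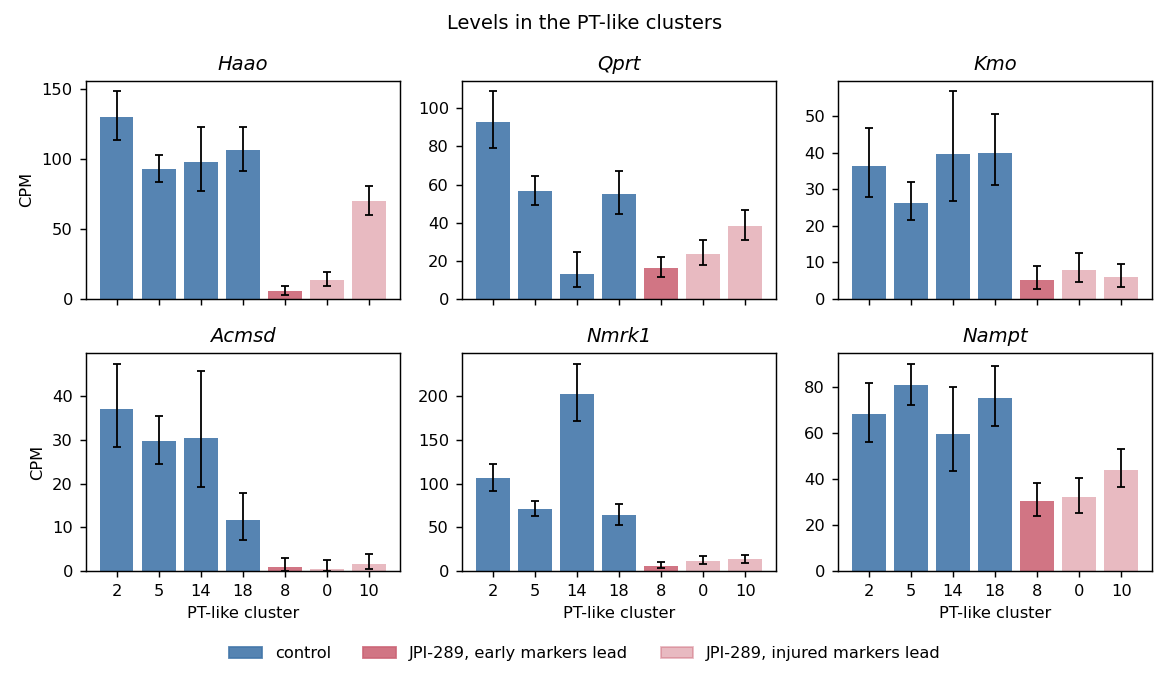
Level of 6 enzymes in each PT-like cluster with at least 50 cells of a library, in CPM, with bars for the sum over the cells of that cluster and exact Poisson 95% intervals. Haao, Kmo, Acmsd, Nmrk1 and Nampt stay below every control cluster in all 3 JPI-289 clusters, Haao reaching 69.8 CPM in JPI-289 cluster 10. Qprt does not, since control cluster 14 lies at 13.2 CPM.

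With the clusters led by injured PT markers left out, the 1750 control and 375 JPI-289 cells led by early PT markers gave larger differences. Here 9 of 10 enzymes were called lower, against 27.3% of 10916 genes called lower and 6.74% higher, and the median log2 ratio was -2.24 against -0.30 for all genes. Haao was at 104 CPM in the control and 6.00 with JPI-289, a log2 ratio of -4.07 (-4.96 to -3.39). Nmrk1 was at 88.9 and 6.00 CPM, a log2 ratio of -3.84 (-4.73 to -3.16). Naprt was the exception, at 15.7 and 9.60 CPM with overlapping intervals. These JPI-289 cells were not free of injury markers. Of the 375, 369 were those of cluster 8, which held Havcr1 at 304 CPM, Krt20 at 316 and Cdh6 at 54.5, against 43.0 to 364, 22.5 to 86.1 and 0 to 9.27 CPM in the 4 control clusters, and the part of these levels in the result was not tested. The same step left out cluster 10, which held 179 of the 224 UMIs of Haao in JPI-289 PT-like cells, but kept control cluster 18. Clusters 10 and 18 had the highest Kap level among the PT-like clusters of their libraries. The part of this uneven removal in the larger differences was not tested.

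Kap, an androgen-regulated transcript of the late proximal tubule in male mice, was used to pair clusters of the libraries, a choice made after the values were seen. The PT-like cluster with the highest Kap level was cluster 18 in the control (190 cells, median 4650 UMIs) and cluster 10 in the JPI-289 library (322 cells, median 4188), at 19954 and 20643 CPM of Kap. The first was led by early PT markers and the second by injured PT markers, so the pair was matched on Kap alone. Between them 4 of 10 enzymes were called lower and 0 higher, where 13.1% of 8995 genes were called lower and 17.7% higher. The 10 enzymes had a median log2 ratio of -0.78, against 0.13 for all genes.

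The 4 called enzymes were Acmsd, Kmo, Nmrk1 and Nadsyn1. Kmo had 69 UMIs in the control cluster against 15 in the other, or 39.9 and 5.85 CPM, a log2 ratio of -2.73 (-3.68 to -1.95). Nmrk1 had 110 and 34 UMIs, or 63.6 and 13.3 CPM, a log2 ratio of -2.25 (-2.86 to -1.70). Acmsd had 20 and 4 UMIs, with a log2 ratio of -2.76 (-4.90 to -1.31). Nadsyn1 had 23 and 13 UMIs, a log2 ratio of -1.37 (-2.50 to -0.35), and the intervals of its levels overlapped. Haao and Qprt stood closer between these clusters than among all PT-like cells. Haao had 184 and 179 UMIs, or 106 and 69.8 CPM, a log2 ratio of -0.61 (-0.91 to -0.30), and Qprt had 95 and 98 UMIs, or 54.9 and 38.2 CPM, a log2 ratio of -0.52 (-0.95 to -0.10) with overlapping intervals of the levels. The injury markers Havcr1, at 364 and 835 CPM, and Krt20, at 51.5 and 1198, were higher in the JPI-289 cluster. Pck1, the gluconeogenic enzyme, at 4133 and 388 CPM, and Hnf4a, a factor of hepatic and renal epithelium, at 180 and 68.6, were lower, and the part of these 4 genes in the result was not tested.

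Across cell classes, PT-like cells held the highest level of 8 of the 10 enzymes in the control and of 6 in the JPI-289 library, among the 10 classes with at least 50 cells in both. The interval was apart from that of the next class for 2 of the 8 and 1 of the 6. Of the UMIs of all named cells, PT-like cells held 52.3% in the control and 44.6% with JPI-289. Their share of the de novo enzymes was far above this in both libraries. In the control they held 93.7% of the UMIs of Haao, 93.3% of Qprt, 92.9% of Kmo and 91.7% of Acmsd, and with JPI-289 92.2%, 91.4%, 90.2% and 87.5%, the last over 8 UMIs. Haao alone was highest in PT-like cells with an interval apart from the next class, neutrophil-like cells, in both libraries, at 104 against 29.9 CPM in the control and 30.6 against 4.95 with JPI-289. For Naprt and Nadsyn1 the podocyte-like class led in the control, at 24.4 and 12.2 CPM, but on 2 UMIs and 1 UMI, and neither gene differed from PT-like cells beyond counting error.

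**Figure D3:**
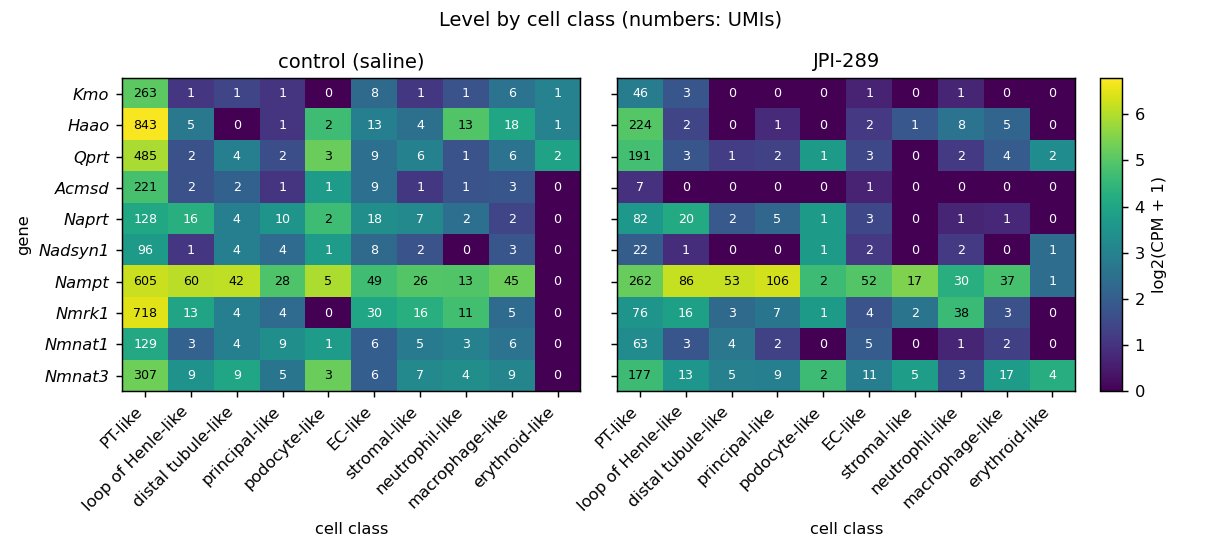
Level of each enzyme (rows) in each cell class (columns) of the control (left) and the JPI-289 library (right), with color for log2(CPM + 1) and the printed number for the UMIs. The PT-like column has the highest value for the de novo genes in both libraries, and of these Haao alone has an interval apart from the next class. Acmsd rests on 7 UMIs in PT-like cells of the JPI-289 library. Nampt is spread over the tubule classes.

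The order of the salvage enzymes across classes differed between the libraries. In the control, Nmrk1 was highest in PT-like cells, at 88.6 CPM against 25.3 (12.6 to 45.2) in neutrophil-like cells, and PT-like cells held 89.2% of its UMIs. In the JPI-289 library neutrophil-like cells came first, at 23.5 (16.6 to 32.3) CPM, loop of Henle-like cells next at 13.4 (7.66 to 21.8), and PT-like cells at 10.4 held 48.7%. The level of Nmrk1 in neutrophil-like cells was nearly the same in both libraries (11 and 38 UMIs, log2 ratio -0.15, -1.10 to 1.01), while that in PT-like cells was lower with JPI-289.

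Nampt was well represented outside PT-like cells. In the control its levels in PT-like, distal tubule-like and loop of Henle-like cells, 74.6, 69.6 and 67.1 CPM, did not differ beyond counting error, and PT-like cells held 67.4% of its UMIs. With JPI-289 the order was principal-like (78.4), loop of Henle-like (72.1), distal tubule-like (72.0), stromal-like (43.4) and PT-like (35.8), and PT-like cells held 39.9%. The intervals of the first 3 overlapped one another and lay above that of PT-like cells. The log2 ratio was 0.10 (-0.39 to 0.60) in loop of Henle-like, 0.05 (-0.56 to 0.67) in distal tubule-like and 0.28 (-0.31 to 0.88) in EC-like (endothelial) cells. It was 0.55 (-0.44 to 1.47) in stromal-like, -0.48 (-1.15 to 0.18) in macrophage-like and -0.72 (-1.67 to 0.37) in neutrophil-like cells. Each of these intervals includes 0. Intercalated-like cells, left out of the classes compared for their 47 control cells, had 25 and 5 UMIs of Nampt (-1.91, -3.76 to -0.61).

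In principal-like cells, the water-handling cells of the collecting duct, Nampt had 28 UMIs in the control and 106 with JPI-289, or 29.2 (19.4 to 42.2) and 78.4 (64.2 to 94.8) CPM. The log2 ratio was 1.41 (0.81 to 2.08), the intervals were apart, and Nampt was the only enzyme called higher in any class, where 8.77% of 8354 genes in principal-like cells were called higher. The 2 groups of cells were not alike. The control had 78 of them at a median of 9235.5 UMIs and the JPI-289 library 381 at 1541, the 7 principal cell markers summed to 12300 and 7266 CPM, the 8 neutrophil markers to 2.08 (6 of them at 0) and 536 (1 at 0), and the 6 red blood cell markers to 40.6 (3 at 0) and 1079 (none at 0). In the JPI-289 library the Nampt level was 18.6 CPM in neutrophil-like and 4.41 in erythroid-like cells. The part of these differences in the result was not tested. After thinning to 1000 UMIs, Nampt was seen in 5.71% (1.58 to 14.0) of the principal-like cells of the control and, with JPI-289, in 9.92% (7.04 to 13.5), with overlapping intervals, and the log2 ratio was 0.68 in the thinned cells, 0.69 at a Leiden resolution of 0.5, 0.74 with each library clustered alone and 0.38 in the cells of the first calling step, all under 2-fold.

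**Figure D4:**
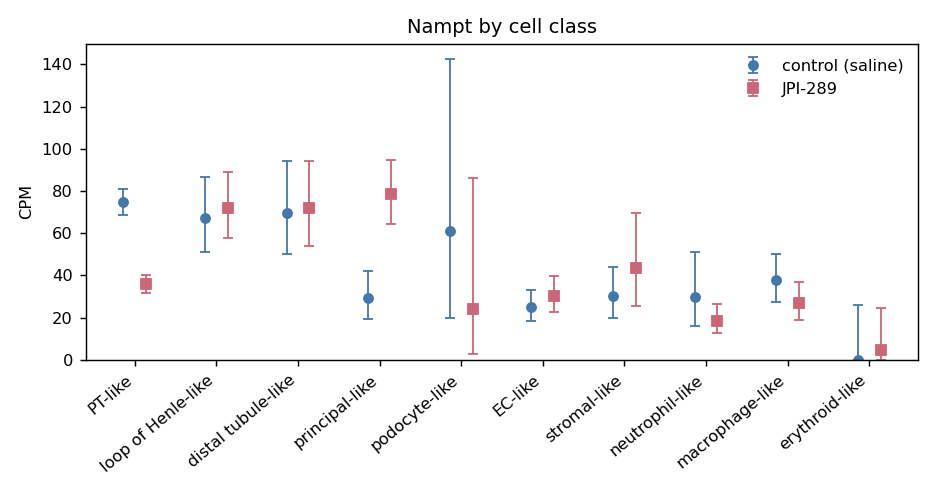
Level of Nampt in each cell class, in CPM, with circles for the control and squares for the JPI-289 library and bars for exact Poisson 95% intervals. The JPI-289 value is under the control in PT-like cells (35.8 against 74.6) and above it in principal-like cells (78.4 against 29.2), with overlapping intervals in the other 8 classes.

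Outside PT-like cells the enzymes were sparse. Of the 90 pairs of an enzyme and 1 of the 9 other classes, 16 had at least 20 UMIs, of which 4 were called lower and 1, Nampt in principal-like cells, higher. Of all genes, 11.0% were called lower and 8.09% higher in loop of Henle-like cells, 10.6% and 7.79% in distal tubule-like, 13.8% and 8.77% in principal-like, 18.5% and 5.25% in EC-like and 13.9% and 11.5% in stromal-like cells. The same shares were 20.3% and 24.5% in podocyte-like, 10.3% and 11.6% in neutrophil-like, 15.4% and 8.90% in macrophage-like and 6.64% and 17.4% in erythroid-like cells. Naprt had 18 and 3 UMIs and Nmrk1 30 and 4 in EC-like cells. The EC-like clusters were unevenly filled, with 202 control and 33 JPI-289 cells in cluster 13 and 4 and 190 in cluster 17. The part of this in any EC-like ratio was not tested. Haao had 13 and 8 UMIs in neutrophil-like cells and 18 and 5 in macrophage-like cells. PT markers in the same cells moved the same way. The 10 PT markers summed to 2221 and 1048 CPM in EC-like cells, 2954 and 1039 in neutrophil-like cells and 1132 and 490 in macrophage-like cells. When free RNA, as seen in barcodes under 100 UMIs, was subtracted, 0 of the 4 were called. Subtraction also lowers the UMIs, and these 4 pairs had few above the minimum of 20. A call can therefore lapse without a smaller ratio, and the part of free RNA in these 4 results was not tested.

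Free RNA mostly leaned the same way, on few UMIs. In barcodes under 100 UMIs, Haao had 24 UMIs in the control and 6 with JPI-289, or 54.4 and 17.5 CPM. Nmrk1 had 22 and 4 UMIs, or 49.9 and 11.6 CPM, and Nampt 27 and 13, or 61.2 and 37.8 CPM. The intervals of the levels were apart for Nmrk1 and overlapped for Haao and Nampt. Naprt alone went the other way, at 2 and 4 UMIs. Over all barcodes of each library, with no cell calling and no classes, 6 of 10 enzymes were called lower and 0 higher, where 20.6% of 15273 genes were called lower and 7.31% higher, and the median log2 ratio was -1.57. Acmsd had 801 UMIs in the control and 17 with JPI-289 (log2 ratio -5.41, -6.24 to -4.76), Kmo 762 and 113, Nmrk1 1735 and 347, and Nampt 2549 and 1384 (-0.77, -0.87 to -0.68). The order of the enzymes by ratio thus began with Acmsd and Kmo before any cell was named. Over all barcodes, fewer cells of a class and less RNA per cell cannot be told apart.

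Other genes of the de novo route and its side branch were read in the same PT-like cells. Of 8 listed, 5 had at least 20 UMIs. Of these, 4 were called lower and 0 higher, too few genes to set against the 23.7% and 9.05% of all genes. The median log2 ratio of the 5 was -2.11, against -0.19 for all genes. Kynu, the kynureninase between Kmo and Haao, had 110 UMIs in the control and 1 with JPI-289, or 13.6 and 0.136 CPM, a log2 ratio of -6.06 (-11.95 to -4.13). Afmid, the formamidase that makes kynurenine, had 471 and 98 UMIs (-2.11, -2.45 to -1.80). Of the kynurenine aminotransferases, which lead to kynurenic acid, Kyat1 had 713 and 112 UMIs (-2.52, -2.83 to -2.24), Kyat3 had 91 and 32 (-1.35, -1.99 to -0.77), and Aadat, at 372 and 169 UMIs (-0.99, -1.26 to -0.73), stayed within 2-fold. Tdo2 and Ido1, which open the tryptophan ring, had 0 UMIs in PT-like cells of both libraries, which allows levels of up to 0.370 and 0.409 CPM, and Ido2 had 4 in each.

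Genes that supply or clear precursors were called in both directions. Of 11 listed, 3 had enough UMIs. Of these, 2 were called higher and 1 lower, too few to set against the 9.05% and 23.7% of all genes. Pnp, the purine nucleoside phosphorylase that can also split nicotinamide riboside, had 733 UMIs in the control and 1519 with JPI-289 (log2 ratio 1.20, 1.07 to 1.33). Nt5e (CD73), a surface nucleotidase, had 201 and 452 (1.31, 1.07 to 1.56). Slc5a8, a monocarboxylate carrier that takes up nicotinic acid, had 174 and 54 UMIs (-1.53, -2.01 to -1.09). Of the 7 genes of tryptophan supply, 6 had enough UMIs, with 2 called lower and 1 higher, too few to set against the 23.7% and 9.05% of all genes. Slc6a19, the luminal neutral amino acid carrier and also one of the early PT markers, had 1268 and 441 UMIs (-1.38). Slc7a8, a basolateral one, had 784 and 247 (-1.52), and Slc3a2, the heavy chain partner of several carriers, 978 and 1899 (1.10). Cltrn, at 3676 and 3616 UMIs (0.12), and Slc16a10, at 282 and 288 (0.18), were not called.

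Of 14 listed genes that use, carry or phosphorylate NAD, 11 had enough UMIs, and 3 were called lower and 0 higher, with a median log2 ratio of -0.26. These values lay near those of all genes (23.7% lower, median -0.19). The 3 were Sirt3, the main mitochondrial deacetylase, with 557 and 116 UMIs (-2.11, -2.42 to -1.83), Sirt5, another mitochondrial sirtuin, with 89 and 29 (-1.46) and Parp2 with 80 and 35 (-1.04, -1.66 to -0.46). Nadk, the NAD kinase of the cytosol, had 928 and 850 UMIs (0.019, -0.12 to 0.16) and Slc25a51, the mitochondrial NAD carrier, 912 and 687 (-0.26, -0.41 to -0.12).

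Of the 11 factors and coactivators tied to the pathway, all had enough UMIs, with 5 called lower and 1 higher, against 23.7% and 9.05% of all genes, and a median log2 ratio of -0.85 against -0.19. Ppargc1a (PGC-1α), a coactivator known for raising de novo NAD genes in kidney, had 288 UMIs in the control and 44 with JPI-289 (-2.55, -3.06 to -2.10). Esrra, one of its partners, had 497 and 109 (-2.04), Hnf4a 1472 and 388 (-1.78) and Ppara 1001 and 338 (-1.42). Rela, a subunit of NF-kB, was the one called higher, at 122 and 395 UMIs (1.84, 1.54 to 2.15). Cebpb, at 2140 and 1866 UMIs (-0.05), and Stat3, at 651 and 1136 (0.95), were not called. Factors of tubular epithelium and mitochondrial metabolism were thus lower alongside the NAD enzymes, as were the PT markers, and whether either bears on the enzymes was not tested.

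**Figure D5:**
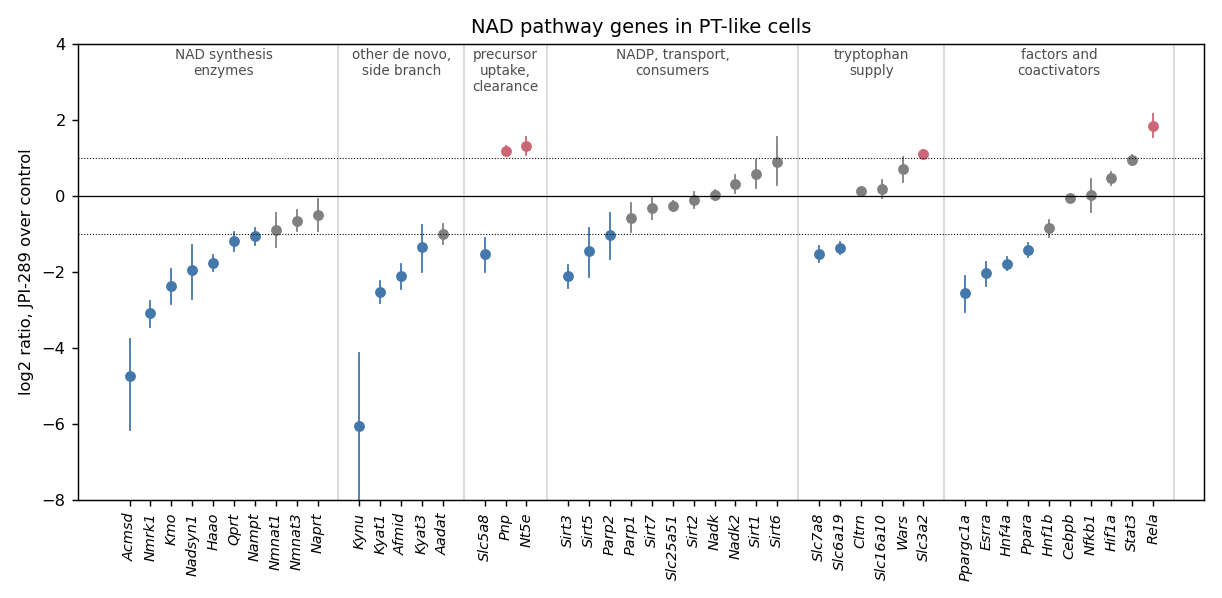
Log2 ratio of JPI-289 over control in PT-like cells for NAD pathway genes with at least 20 UMIs, not all of them named in the text. Lines are exact binomial 95% intervals (that of Kynu runs beyond the axis). Blue is for genes called lower, red for called higher and grey for neither, with dotted lines at 2-fold. All 10 NAD synthesis enzymes lie below 0, and 7 lie beyond the lower line.

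Some genes had class patterns close to those of single enzymes. Likeness was Pearson's r of log2(CPM + 1) over 22 columns, each a class in a library, among 9917 genes, and columns of 1 library share that library's depth and free RNA. Acmsd was most like Slc13a2, the apical citrate carrier (r = 0.97), then Cckar (0.94) and Zmynd10 (0.91). Kmo was most like Smlr1 and A1cf (both 0.89), Qprt like Nox4 (0.88) and Hgd (0.87), and Haao like Nat8f5 (0.87) and Them7 (0.85). Nampt was most like Habp4 (0.91), and Nmrk1 like Cep19 (0.81). Naprt was most like Lzts3 (0.94), Nmnat1 like Tfcp2 (0.90) and Nmnat3 like Asb13 (0.79). Between the enzymes themselves r was 0.72 for Haao and Kmo and 0.60 for Haao and Qprt, and -0.11 for Nampt and Qprt. The highest values were 0.75 for Nmnat1 and Acmsd and 0.73 for Nmnat1 and Naprt. Outside PT-like cells these genes had few UMIs or none in most classes, so single UMIs weigh on these values. In podocyte-like cells of the control, 1 UMI of Nmnat1 or of Acmsd was 12.2 CPM.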

How the data were processed

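The authors deposited raw counts of UMIs per gene and barcode for every barcode of both 10x 5′ libraries (mm10, the name for GRCm38). Alignment was by Cell Ranger 5.0.1 per the submitters' processing notes, while the deposited file headers name Cell Ranger 4. No cell calls or clusters were used from the study. Cells were called in 2 steps: barcodes over 10% of the 99th percentile of the 3000 largest, then barcodes with at least 500 UMIs against the profile of ranks 45000 to 90000 (10000 simulations, false discovery rate 0.01). Cells over 50% mitochondrial UMIs were removed. Clustering was by the Leiden method at resolution 1, on 20 nearest neighbours in 30 principal components of 2000 variable genes (scanpy 1.11.5, leidenalg 0.10.2). Clusters were named from marker lists, by a naming rule set after the clusters were seen. Scrublet marked 1 of 8759 cells as doublets and so did not work; no doublet was removed, and leaving out its highest 5% of scores was tried. UMIs were summed per class and library, and 0.5 UMI was added before log2. A gene needed 20 UMIs over both libraries, and a class 50 cells in each, which leaves out intercalated-like and lymphocyte-like cells. Free RNA was read from barcodes under 100 UMIs. Intervals were computed with scipy 1.17.1 and checked on simulated data. The 10 enzymes and the gene lists were chosen with earlier results of these data known. The text names all 10 enzymes and the called genes of each list in PT-like cells. Of the uncalled genes of a list with at least 20 UMIs, it names up to 2 with most UMIs. It also names the genes most like an enzyme with at least 200 UMIs, which leaves out Nadsyn1. From the factors, 1 gene called lower and 1 motif, and 1 promoter window with its position, are not reported here. Alternatives changed cell calling, filters, clustering, scaling, minimum counts, added counts, free RNA and depth.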

Additional observations from a re-analysis of the deposited data

Results flagged for a closer look

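Nampt had opposite directions in principal-like and PT-like cells. The ratio on the log2 scale was 1.41 in principal-like cells (higher with JPI-289) and -1.06 in PT-like cells, with 1 library per group, and the difference between these ratios was not tested. The values that move with the principal-like result (depth per cell, and neutrophil and red blood cell markers) are given with it above, and their part was not tested.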

How the results depend on the processing

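In 18 alternatives, 5 to 9 of the enzymes were called lower in PT-like cells against 7, with medians from -2.24 to -1.22 against -1.48. The match by Kap, given above, is not among the 18 and lies outside these ranges. It gave 4 of 10 enzymes called lower and a median of -0.78. Of 177 single PT-like values of the 18 alternatives, 176 were below 0. The exception was Nampt in the clusters led by injured PT markers alone, at 1.34 and then the 1 enzyme called higher, where the control had 26 cells and 0 UMIs of Nampt, so that this value depends on the added count. In the same clusters the values of Kmo (-1.13, called lower) and Nmrk1 (-0.26) depend on it too. Kmo had 0 UMIs in the control and 33 with JPI-289, and Nmrk1 had 0 and 61, so their direction there is not known. Outside PT-like cells calls rested on few UMIs. The 4 calls of lower became 1 with the first calling step alone, 2 without the highest scrublet scores, 0 at a minimum of 100 UMIs, 23 at 5 UMIs, 0 or 1 with free RNA of barcodes under 100 or of 100 to 300 UMIs subtracted, and 0 with cells thinned to 1000 UMIs. The 1 call of higher became 0 with the first step, at resolution 0.5, with each library clustered alone and with thinned cells, and 2 without the highest scrublet scores and at 5 UMIs. A minimum of 100 UMIs left 1620 genes called lower in PT-like cells in place of 2678, as fewer genes were tested. For the other changes the cause was not tested. Enzymes highest in PT-like cells, with the levels of both libraries added, numbered 7, and 6 to 9 under the alternatives. Limiting cells to 20% mitochondrial UMIs or leaving out the highest scrublet scores left 666 and 837 JPI-289 cells named PT-like, in place of 1634, and 6 and 8 enzymes called lower. Subtraction of free RNA of barcodes of 100 to 300 UMIs, thinning, leaving out cluster 14 and the match by Kap were added after the data were seen. No paired analysis was possible because each group had 1 library. No alternative stands in for replicate mice.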

Other observations

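Some other NAD genes were called outside PT-like cells, and only part of them are named here. In macrophage-like cells, Bst1 (CD157), which cleaves NAD at the cell surface, had 132 UMIs in the control and 34 with JPI-289, or 110 and 24.7 CPM, a log2 ratio of -2.14 (95% interval -2.75 to -1.60). Pnp had 220 and 84 UMIs in macrophage-like cells (-1.58, -1.97 to -1.22) and 81 and 100 UMIs, or 186 and 61.9 CPM, in neutrophil-like cells (-1.59, -2.03 to -1.15). The 11 macrophage markers in macrophage-like cells summed to 15796 CPM in the control and 5690 with JPI-289, and their part in these values was not tested. These ratios of Pnp lie below 0, while that in PT-like cells was 1.20, and the difference between classes was not tested.

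Rela was called higher in 4 other classes, namely loop of Henle-like (30 and 101 UMIs, log2 ratio 1.32), distal tubule-like (13 and 57, 1.80), principal-like (49 and 144, 1.05) and stromal-like cells (44 and 42, 1.08). The 8 neutrophil markers summed to 13.4 and 64.5 CPM in the first of these classes, 44.7 and 205 in the second, 2.08 and 536 in the third and 10.4 and 624 in the fourth, and their part in the calls was not tested. Stroma markers summed to 17859 and 9124 CPM in stromal-like cells. Slc3a2 was also called higher in principal-like cells, at 100 and 392 UMIs (1.47, 1.16 to 1.81), and in loop of Henle-like cells, at 107 and 296 (1.05). Esrra was called lower in loop of Henle-like cells, at 43 and 11 UMIs (-2.34, -3.49 to -1.40). It was also called lower in distal tubule-like, EC-like and stromal-like cells, and higher in neutrophil-like cells, at 11 and 86 UMIs (1.02). The intervals of its levels overlapped in stromal-like and neutrophil-like cells. Parp1 was called lower in macrophage-like (46 and 14 UMIs, -1.88), principal-like (20 and 9, -1.60) and EC-like cells (25 and 7, -1.57, with overlapping intervals of the levels). Nadk, close between the libraries in PT-like cells, was at 71 and 37 UMIs in loop of Henle-like cells (-1.35, -1.97 to -0.76). Nnmt, which methylates nicotinamide and so removes it from salvage, had 43 and 6 UMIs in stromal-like cells (-1.60, -3.22 to -0.46).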
